A study of Mus musculus with 20 samples.

Results

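Loss of Cebpb in adipose tissue was examined in brown fat of mice kept at room temperature. The comparison took the 5 libraries of brown adipose tissue from mice labelled as adipose specific CEBPB knockout and kept at room temperature (KO_RT) and the 5 libraries labelled CEBPB wild type at room temperature (WT_RT), 10 of the 20 libraries of the series. The members were chosen by these labels alone, and all 15233 genes that passed a filter on low counts, of 55471 gene IDs counted, were tested. The other 10 libraries came from the same genotypes after 4 h of cold stress, 5 per genotype (WT_cold and KO_cold). They are used here only to estimate the spread and to set each knockout effect at room temperature beside that in the cold. The labels name no strain, age or sex, do not say which promoter drove the adipose deletion, and do not say that each library came from a separate mouse. The p-values therefore measure the spread between libraries, which may in part be technical.

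C/EBP beta, the product of Cebpb, is a basic leucine zipper transcription factor that binds DNA as a dimer with itself or with other C/EBP proteins. It acts early in the making of fat cells, ahead of C/EBP alpha and PPAR gamma, and is known in brown fat as a factor induced by cold and cAMP that takes part in the thermogenic program. C/EBP dimers favour sites of the form TTGC followed by GCAA or by related letters.

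The room temperature libraries held 28.06 to 40.87 M reads on the counted strand, of which 29.1% to 34.6% fell on mitochondrially encoded genes. Values are given as CPM (counts scaled to the library total) after TMM scaling, and differences as log2 of the KO_RT level over the WT_RT level with the standard error of the fit. A gene was called where the adjusted p of edgeR's quasi-likelihood test (Benjamini-Hochberg) was under 0.05, and all adjusted p-values below come from that test. On the first principal component of all 20 libraries, which held 53.9% of the variance and set room temperature apart from cold, WT_RT replicate 4 lay at 23.4 and the other 9 room temperature libraries at 39.5 to 56.3. Skeletal muscle genes varied widely among libraries: the summed level of 19 muscle markers ran from 61.9 to 1635 CPM over the WT_RT libraries and from 88.5 to 727 CPM over the KO_RT libraries, with 7 markers at 0 in some WT_RT library and 3 in some KO_RT library. None of the 19 was called, and with the mean of these markers as a term in the fit 181 genes were higher and 173 lower in the knockout, against 210 and 201 without it. In bulk tissue, fewer cells of a type and less RNA per cell cannot be told apart.

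Cebpb itself (chromosome 2, 167688915 to 167690418, GRCm38) was nearly absent from the knockout. The 5 WT_RT libraries held 75.5, 101, 104, 112 and 130 CPM in replicate order, and the KO_RT libraries 0.488, 0.856, 0.751, 0.516 and 0.208 CPM. No KO_RT library came near a WT_RT library, so that the genotype labels held in all 10. This gene does not check the temperature labels. The difference was -7.53 ± 0.226 (adjusted p = 5.62e-14), and 98 Cebpb reads remained over the 5 knockout libraries against 20553 in the wild type.

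No other C/EBP gene was called. Cebpa, which encodes the C/EBP of mature fat cells, stood at 484 to 579 CPM in WT_RT against 479 to 554 CPM in KO_RT, and the log2 difference was -0.01 ± 0.228. Cebpd, induced together with Cebpb early in adipogenesis, was at 1.58 ± 0.412 CPM (SD, n = 5) in WT_RT and 1.63 ± 0.396 in KO_RT. Cebpg, which encodes a C/EBP without an activation domain, differed by 0.05 ± 0.0908. Ddit3, whose product is the stress-induced dimer partner CHOP, differed by 0.31 ± 0.103 (adjusted p = 0.13). Of the 17 genes listed as C/EBP family and partners 15 were tested, and 2 were called, both lower: Cebpb and Trib1.

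Trib1 encodes a pseudokinase that brings C/EBP alpha to the COP1 ubiquitin ligase. Its level was 72.0, 73.7, 88.0, 101 and 91.0 CPM in WT_RT and 31.3, 27.7, 29.97, 33.7 and 41.4 CPM in KO_RT. Every knockout library lay below every wild-type one, and the difference was -1.37 ± 0.128 (adjusted p = 1.18e-06). The related Trib2 was at 19.0 ± 3.02 CPM (SD, n = 5) and 18.9 ± 2.45 CPM, and Trib3 differed by -0.26 ± 0.234 (adjusted p = 0.714).

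With Cebpb, 411 genes were called at room temperature, 2.70% of the 15233 tested. Of these 210 were higher in the knockout (1.38%) and 201 lower (1.32%), and 65 and 51 of them differed by at least 2-fold. Of the called genes, 87 of the higher and 101 of the lower changed by less than 1.5-fold, and the median absolute log2 difference was 0.68 and 0.58. Over all tested genes the median absolute log2 difference was 0.109, and the median with sign was -0.00479. The WT_RT and KO_RT libraries did not overlap for 758 tested genes (4.98%), and for 160 of the 210 higher and 170 of the 201 lower genes. The higher count fell to 135 without KO_RT replicate 4, and the lower count fell to 123 without WT_RT replicate 5 and to 127 without KO_RT replicate 3. Genes named below as leading reached 5 CPM on average in either genotype, showed no overlap between the groups and had the largest differences or, in a second set, the smallest adjusted p.

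To show what lies in front of leading genes, the upstream stretch of 5 of them is printed here because it held a C/EBP-type motif. The motif searched was TTGCNNAA on both strands, which also covers the palindrome TTGCGCAA, in windows of 250 bases before to 50 bases after each RefSeq start (GRCm38.p6). Windows were found for 32 of 46 leading genes, and 6 of the 32 (18.8%) held the motif, 2 of 14 lower and 4 of 18 higher genes, against 1113 of 10883 tested genes with a window (10.2%). A match says only that these letters are there. Each stretch is 100 bases, read 5′ to 3′ on the strand of the gene, in lower case with the match in capitals. Dio2 comes from chr12:90739067-90739166 (minus strand), Rbp4 from chr19:38124886-38124985 (minus), Pon1 from chr6:5193966-5194065 (minus), Kng2 from chr16:23029160-23029259 (minus) and Xrcc5 from chr1:72307321-72307420 (plus).
Dio2: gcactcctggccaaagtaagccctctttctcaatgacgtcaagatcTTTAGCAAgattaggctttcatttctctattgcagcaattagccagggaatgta
Rbp4: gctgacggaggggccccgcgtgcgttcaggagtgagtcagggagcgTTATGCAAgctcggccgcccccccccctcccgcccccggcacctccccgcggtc
Pon1: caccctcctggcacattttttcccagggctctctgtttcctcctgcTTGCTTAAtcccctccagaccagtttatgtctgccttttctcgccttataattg
Kng2: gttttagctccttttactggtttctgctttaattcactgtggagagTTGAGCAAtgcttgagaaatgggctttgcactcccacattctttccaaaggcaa
Xrcc5: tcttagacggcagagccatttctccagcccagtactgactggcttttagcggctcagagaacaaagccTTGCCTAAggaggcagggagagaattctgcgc
In Pon1 and Xrcc5 the match reads TTGC first, while in Dio2, Rbp4 and Kng2 the capitals are the reverse complement and end in GCAA. The match began 82 bases upstream of the start in Dio2, 128 in Rbp4, 73 in Pon1, 112 in Kng2 and 32 in Xrcc5. The sixth, Plet1os, an antisense transcript lower in the knockout, held it 36 bases upstream. The palindrome TTGCGCAA was in none of the 32 genes' windows and in 36 of the 10883.

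A pair of sialyltransferase genes, St3gal5 and St3gal6, were lower in the knockout. St3gal5 encodes GM3 synthase, the sialyltransferase that makes the first ganglioside of the series. It stood at 83.6, 87.1, 55.4, 91.3 and 93.8 CPM in WT_RT and at 24.6, 14.04, 29.6, 17.5 and 17.5 CPM in KO_RT. Even the lowest wild-type library lay above the highest knockout one, and the difference was -1.996 ± 0.226 (adjusted p = 4.23e-05), a 3.99-fold reduction. St3gal6, a sialyltransferase that acts on the ends of glycoprotein and glycolipid chains, held 41.5, 37.0, 40.2, 39.2 and 47.3 CPM against 18.02, 21.7, 19.2, 19.2 and 14.96 CPM. Both groups were tight and well apart (-1.14 ± 0.101, adjusted p = 2.64e-07). Of 25 ganglioside and sialic acid genes 23 were tested, and these 2 were the only ones called. The share called over all tested genes, 2.70%, stands beside this and the later list counts. The lists were chosen with earlier results of these data known, so a share above 2.70% is a description and not a test. The other 21 list members included Ugcg, the glucosylceramide synthase at the start of the pathway (-0.14, adjusted p = 0.62), and St3gal2. The median of the list was -0.06. St6galnac2, a sialyltransferase gene outside the list, went the other way (0.68 ± 0.178, adjusted p = 0.0408).

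Cldn1, the tight junction protein claudin 1, fell from 37.9, 42.8, 36.3, 67.9 and 75.01 CPM to 25.8, 6.71, 8.87, 8.35 and 19.4 CPM. The knockout libraries spread widely but stayed below all wild-type ones (-1.90 ± 0.376, adjusted p = 0.00999), although the call was lost in a fit of the 10 room temperature libraries alone (adjusted p = 0.0668). Gpc1, a heparan sulfate proteoglycan anchored to the membrane, was at 6.05 ± 1.99 CPM (SD, n = 5) in WT_RT and 1.996 ± 0.418 in KO_RT (-1.60 ± 0.207, adjusted p = 5.23e-05). Chst12, a sulfotransferase of chondroitin and dermatan sulfate, fell by 1.05 ± 0.209 on the log2 scale (adjusted p = 0.00728).

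Myrip and Myo5a, an adaptor and a motor of vesicle transport along actin, were both lower. Myrip held 6.08, 5.05, 4.51, 3.92 and 7.48 CPM in WT_RT and 1.05, 1.26, 1.40, 2.28 and 1.19 CPM in KO_RT (-1.92 ± 0.287, adjusted p = 0.000451). Myo5a changed less, from 105 ± 10.2 to 73.3 ± 9.25 CPM (SD, n = 5; -0.51 ± 0.0762, adjusted p = 0.000309). Tmem56, a membrane protein of the TLC domain family, fell 4.16-fold, from 15.7 to 28.2 CPM over the WT_RT libraries to 4.16 to 6.01 CPM over the KO_RT libraries (adjusted p = 4.36e-05).

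**Figure D1:**
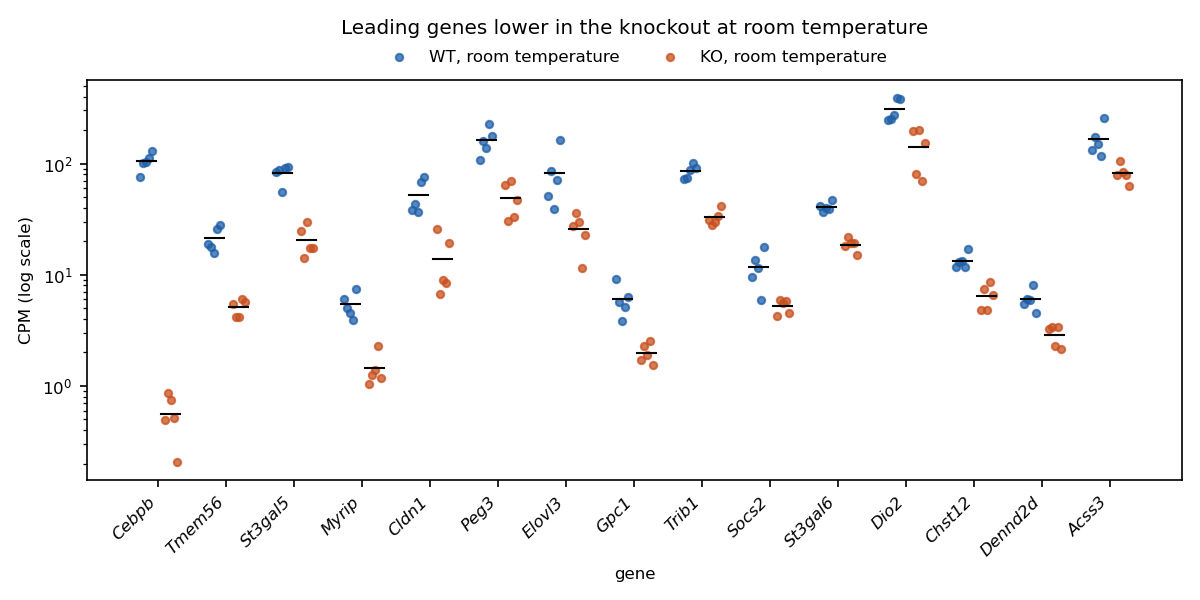
The 15 leading genes that were lower in the knockout, with CPM on a log axis against gene. Each point is a library (blue WT_RT, orange KO_RT, 5 each) and the bar is the group mean. Cebpb falls from about 105 to 0.564 CPM, and for every gene shown all orange points lie below all blue ones.

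A pair of enzymes of thermogenic fat fell, while most of the listed brown fat genes were not called. Elovl3, the fatty acid elongase that marks activated brown fat, stood at 50.7, 85.2, 39.0, 70.6 and 163 CPM in WT_RT and 27.4, 36.3, 29.97, 11.4 and 22.6 CPM in KO_RT. The wild-type libraries spread widely, with the lowest just above the highest knockout library (-1.68 ± 0.354, adjusted p = 0.0148, and 0.112 in a fit of the 10 room temperature libraries alone). Dio2, the deiodinase that makes active thyroid hormone within the fat cell, was at 244, 249, 276, 385 and 383 CPM against 195, 80.0, 202, 70.4 and 152 CPM. The groups did not overlap, but 2 knockout libraries lay close to the wild type (-1.14 ± 0.261, adjusted p = 0.0245). This call held in 12 of 19 settings. It was lost without WT_RT replicate 4 (0.0631), WT_RT replicate 5 (0.0711), KO_RT replicate 2 (0.0561) or both intermediate WT libraries (WT_RT replicate 4 and WT_cold replicate 5, 0.0574), with no filter on low counts (0.0579), with the replicate number as a block (0.0508) and in the room temperature fit (0.143). Zic1, a transcription factor that marks classical brown fat, fell by 0.50 ± 0.129 (adjusted p = 0.0395), a call held in 9 of 19 settings and lost without any library other than WT_RT replicates 2 and 4. Esrrb, an orphan nuclear receptor, was higher by 1.15 ± 0.298 (adjusted p = 0.0432), held in 6 of 18 settings.

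The other 18 of the 22 thermogenic and brown adipocyte genes tested were not called. Ucp1, the uncoupling protein, held 6372 ± 1379 CPM (SD, n = 5) in WT_RT against 5967 ± 862 in KO_RT (-0.09 ± 0.115). Ppargc1a, a coactivator of mitochondrial genes, differed by -0.01 ± 0.283, Cidea by -0.02 ± 0.0683 and Prdm16 by -0.08 ± 0.132. None of 20 adipogenic transcription factors, 28 adrenergic and cAMP signalling genes or 28 nuclear-encoded respiratory chain genes was called. Pparg, the nuclear receptor that directs fat cell formation, was at 219 ± 24.3 CPM and 216 ± 11.6 CPM.

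Genes that bring lipid into the fat cell and break it down were lower in 3 of 23 cases. Lpl, the lipase that frees fatty acids from blood lipoproteins, held 6914, 6251, 5532, 6625 and 9400 CPM in WT_RT and 4922, 4201, 4505, 3985 and 4647 CPM in KO_RT. All knockout libraries were below all wild-type ones (-0.64 ± 0.104, adjusted p = 0.000806). Slc27a1, a fatty acid transport protein, fell by 0.47 ± 0.0917 (adjusted p = 0.00544). Abhd5, the activator of the triglyceride lipase ATGL, fell by 0.36 ± 0.0832 (adjusted p = 0.0196), which was lost without WT_RT replicate 5 (0.0667) or KO_RT replicate 5 (0.0536). Cd36, the main fatty acid receptor, differed by -0.10 ± 0.0713, and the list's median was -0.10. Acss3, a mitochondrial enzyme that activates propionate, fell from 165 ± 55.7 to 82.2 ± 15.5 CPM (SD, n = 5; -1.01 ± 0.2, adjusted p = 0.00891).

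Fatty acid and triglyceride synthesis had the highest median of the pathway lists, 0.38, with 17 of 22 members positive, where 7399 of all 15233 tested genes were. None was called by edgeR, although 11 had an unadjusted p under 0.05, and DESeq2 called 1 (Acss2). Fasn, the fatty acid synthase, was at 2990 ± 1459 CPM (SD, n = 5) in WT_RT against 6366 ± 2127 in KO_RT, and its difference of 1.09 ± 0.4 missed the threshold (adjusted p = 0.199). Acly, which supplies acetyl-CoA for it, differed by 1.21 ± 0.423 (adjusted p = 0.171).

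Of 12 genes of the growth hormone and STAT5 axis, 3 were lower. Ghr, the growth hormone receptor, held 284, 322, 318, 308 and 323 CPM in WT_RT and 202, 247, 202, 214 and 213 CPM in KO_RT, groups that did not overlap (-0.53 ± 0.107, adjusted p = 0.00716). Socs2, the inhibitor that growth hormone induces, stood at 9.57, 13.6, 11.5, 5.96 and 17.9 CPM against 4.27, 5.94, 5.60, 5.77 and 4.48 CPM, where WT_RT replicate 4 lay just above the highest knockout library. Its difference was -1.17 ± 0.275 (adjusted p = 0.0276), a call held in 10 of 19 settings and lost without any library other than WT_RT replicates 1 and 4. Igfals, whose product is a part of circulating IGF complexes, fell by 1.13 ± 0.282 (adjusted p = 0.0357), with overlapping groups and a call held in 10 of 19 settings. Igf1 itself differed by -0.38 (adjusted p = 0.54) and the median of the 12 was -0.15.

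The lower genes of smallest p included several with modest but even differences. Rpl29, a protein of the large ribosomal subunit, held 26.3, 26.7, 29.9, 30.9 and 27.0 CPM in WT_RT and 15.7, 17.9, 18.2, 17.7 and 17.4 CPM in KO_RT (-0.70 ± 0.059, adjusted p = 1.41e-07). Processed copies of ribosomal protein genes can take or lose its reads, so that this value is uncertain. Tcn2, the carrier of vitamin B12 in blood, fell by 0.94 ± 0.136 and Map3k5, the stress kinase ASK1, by 0.60 ± 0.0823. Usp33, a deubiquitinase, fell from 94.1 ± 8.97 to 59.5 ± 5.59 CPM (SD, n = 5; -0.66 ± 0.0846, adjusted p = 4.42e-05).

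Among the higher genes, Atp1b3 showed hardly any spread. It encodes a regulatory beta subunit of the sodium pump, and was at 185, 182, 194, 196 and 181 CPM in WT_RT against 262, 254, 267, 266 and 267 CPM in KO_RT (0.49 ± 0.0477, adjusted p = 1.1e-06).

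Rbp4, the retinol carrier made by liver and fat, held 51.1, 51.7, 61.7, 37.6 and 47.7 CPM in WT_RT and 151, 126, 154, 126 and 112 CPM in KO_RT. The groups were far apart (1.42 ± 0.111, adjusted p = 7e-08), a 2.68-fold rise. Pon1, the HDL-bound paraoxonase known chiefly from liver, stood at 54.9, 48.0, 38.2, 32.8 and 38.8 CPM against 136, 137, 136, 105 and 111 CPM (1.56 ± 0.246, adjusted p = 0.00129). Il1rn, the interleukin 1 receptor antagonist, was at 3.76, 1.31, 1.60, 2.48 and 1.92 CPM against 14.02, 7.73, 8.40, 6.65 and 8.08 CPM (2.02 ± 0.264, adjusted p = 9.77e-05). Il1rn was the only one of 15 acute phase and inflammatory genes called. Ptgds, the lipocalin-type prostaglandin D synthase, rose by 1.44 ± 0.325 (adjusted p = 0.0195), a call held in 14 of 19 settings. It was lost without WT_RT replicate 3, 4 or 5 (0.0513 to 0.0593), without both intermediate WT libraries (0.0582) and with no filter on low counts (0.0632).

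**Figure D2:**
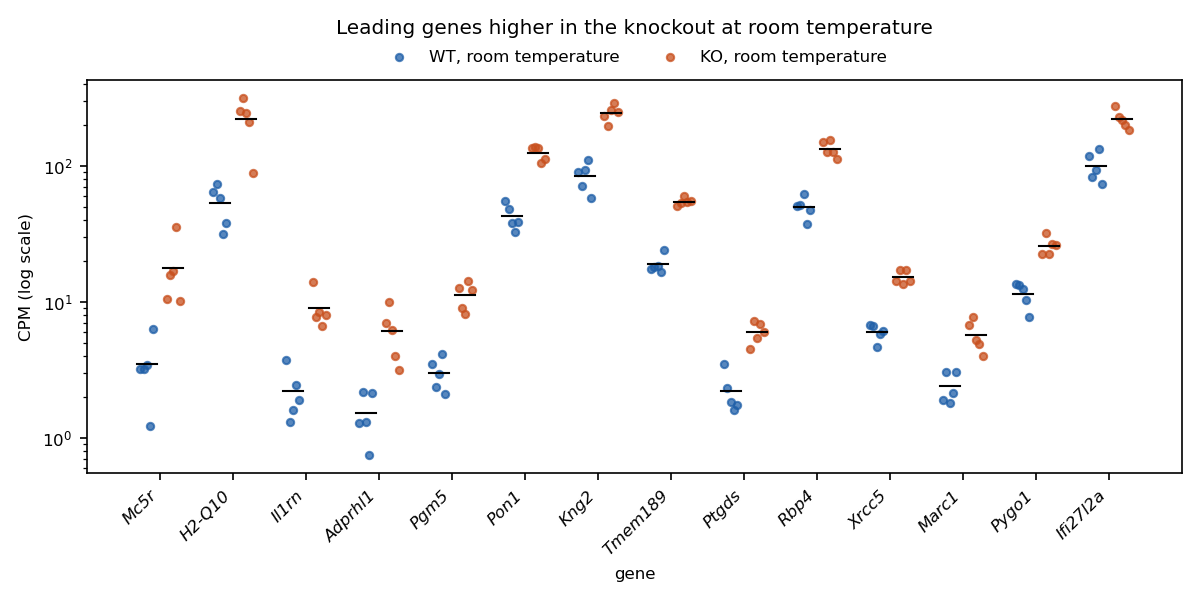
Leading genes that were higher in the knockout (14 shown), with CPM on a log axis against gene. Each point is a library (blue WT_RT, orange KO_RT, 5 each) and the bar is the group mean. Il1rn rises from 2.21 to 8.97 CPM on average, and for every gene shown all orange points lie above all blue ones.

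Of the secreted factors of adipose tissue on the list, 23 were tested, 2 were higher and 2 lower, with a median of -0.01. Bmp8b, a bone morphogenetic protein known in brown fat, was nearly silent in WT_RT (0, 0.0234, 0.0571, 0.129 and 0.126 CPM, 13 reads in all) and at 1.59, 1.498, 0.751, 0.941 and 0.564 CPM (193 reads) in KO_RT, a fitted difference of 3.96 ± 0.646 (adjusted p = 0.00129). Cfd, the adipokine adipsin, held 915, 850, 801, 960 and 1205 CPM against 513, 651, 618, 573 and 634 CPM (-0.66 ± 0.151, adjusted p = 0.0195). This call was lost without WT_RT replicate 5 (0.0668), KO_RT replicate 1 (0.0593) or KO_RT replicate 4 (0.0564). It was also lost without both intermediate WT libraries (0.0506) and with no filter on low counts (0.0568). Apln, the peptide hormone apelin, differed by -1.29 ± 0.307 with overlapping groups, held in 8 of 19 settings. Adiponectin (Adipoq) and leptin (Lep) differed by -0.01 and 0.04.

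Mc5r, a melanocortin receptor coupled to cAMP, held 3.25, 3.20, 3.43, 1.24 and 6.36 CPM in WT_RT and 10.5, 15.8, 17.0, 35.8 and 10.2 CPM in KO_RT (2.35 ± 0.512, adjusted p = 0.0184). KO_RT replicate 4 lay far above the others, and without it the adjusted p was 0.0577. The neighbouring Mc2r, the receptor for ACTH, was chosen after its values were seen. It rose from 1.06 ± 0.249 to 2.13 ± 0.532 CPM (SD, n = 5; 1.002 ± 0.217, adjusted p = 0.0119). Lpar4, a receptor for lysophosphatidic acid, rose from 3.62 ± 0.531 to 7.17 ± 0.737 CPM (adjusted p = 2.62e-05).

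A pair of higher genes carry names of immune function. H2-Q10, which encodes a secreted class I molecule known from liver, was at 64.1, 73.1, 58.6, 31.5 and 38.4 CPM in WT_RT and 252, 314, 243, 211 and 88.7 CPM in KO_RT (2.06 ± 0.399, adjusted p = 0.00864). It shares sequence with other class I genes, so that reads could be split among them. Ifi27l2a, induced by interferon, rose from 100 ± 25.5 to 221 ± 34.8 CPM (SD, n = 5; 1.14 ± 0.21, adjusted p = 0.00526). None of 20 MHC and interferon-responsive genes on the list was called, with a median of 0.19.

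Pid1, whose product interferes with insulin signalling, rose from 13.8 ± 2.34 to 28.2 ± 4.19 CPM (SD, n = 5; 1.03 ± 0.125, adjusted p = 2.72e-05). Xrcc5, the Ku80 subunit of DNA end joining, held 6.74, 6.68, 4.68, 5.83 and 6.09 CPM in WT_RT and 14.4, 17.1, 13.7, 17.1 and 14.2 CPM in KO_RT, groups with little spread that were far apart (1.35 ± 0.116, adjusted p = 1.66e-07). Tshz2, a zinc finger factor, rose from 34.5 to 38.5 CPM over the WT_RT libraries to 61.7 to 69.5 CPM over the KO_RT libraries (0.78 ± 0.0601, adjusted p = 5.13e-08). Pygo1, a Wnt coactivator, rose 2.26-fold and Pgm5, a protein of cell adhesions related to phosphoglucomutase, 3.74-fold.

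In glycolysis, 2 of 24 genes rose: Hk1, a hexokinase, by 0.58 ± 0.0964 (adjusted p = 0.00102) and Pkm, pyruvate kinase, by 0.35 ± 0.0789 (adjusted p = 0.0143, and 0.05 without KO_RT replicate 2). Of 25 extracellular matrix genes, Col15a1 (0.43), Mmp2 (0.37) and Dcn (0.29) rose and 22 had a positive difference, with a median of 0.22. Over all tested genes, 7399 of 15233 were positive. Some lists without a call leaned the same way: 25 of 28 nuclear-encoded respiratory chain genes and 16 of 20 MHC and interferon-responsive genes were positive. Of 14 fibroblast and progenitor markers, 2 were also higher, Pdgfra (0.32) and Dcn, and the summed level of the 14 ran from 618 to 819 CPM in WT_RT and from 762 to 1021 CPM in KO_RT. None of those 14 was at 0 in any library, and the part of these cells in the matrix genes was not tested. The calls of Mmp2, Dcn and Pdgfra were held in 12, 11 and 12 of 19 settings. Mt2, a metallothionein induced by glucocorticoids and metals, rose from 36.5 ± 3.7 to 75.8 ± 14.8 CPM (SD, n = 5; adjusted p = 0.00456).

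Across all 30 pathway lists, 31 of 591 tested genes were called, the deleted Cebpb among them, where 2.70% of all tested genes were. The lists were chosen with earlier results of these data known, so these shares are not independent of the data. Without KO_RT replicate 3 or without WT_RT replicate 5, 19 list members were called. Besides those named, Hadhb of fatty acid oxidation was higher, and Tbc1d4 of insulin signalling, Slc7a10 and Bcat2 of amino acid metabolism, Suclg2 of the TCA cycle and Ctsl of the lysosome were lower. Of 19 settings, the call held in 14 for Hadhb, 13 for Tbc1d4 and Ctsl, 12 for Bcat2 and 11 for Suclg2, and in 11 of 18 for Slc7a10. No member was called among immediate early genes (22), cholesterol genes (19), the unfolded protein response (21), heat shock proteins (16), mitochondrially encoded respiratory genes (13), clock genes (19), hypoxia genes (15) or proliferation genes (16). Over the 13 pathway lists without a call, 256 genes in all, 46 had an unadjusted p under 0.05 in edgeR (17.97%, against 13.9% of all tested genes), and DESeq2 called 5: Acss2, Bnip3, Dnajb9, Mvk and Rora. Among the markers of other cells, none of 14 macrophage, 3 neutrophil, 14 lymphocyte, 14 endothelial, 12 smooth muscle, 7 Schwann cell or 7 erythrocyte genes was called. Together with the muscle genes these were 90 genes, of which 8 had an unadjusted p under 0.05 and DESeq2 called 2, Cd14 and Pmp22. The absence of calls does not show equal levels. Of these markers, 13 of 14 endothelial and 10 of 12 smooth muscle genes had a negative difference, and 12 of 14 macrophage genes a positive one. Of the 12 mature adipocyte markers 10 were not called. The summed level of all 12 was 22783 to 30166 CPM in WT_RT and 21097 to 23291 CPM in KO_RT. That sum includes Lpl, called lower, which alone averaged 6944 CPM in WT_RT and 4452 CPM in KO_RT.

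**Figure D3:**
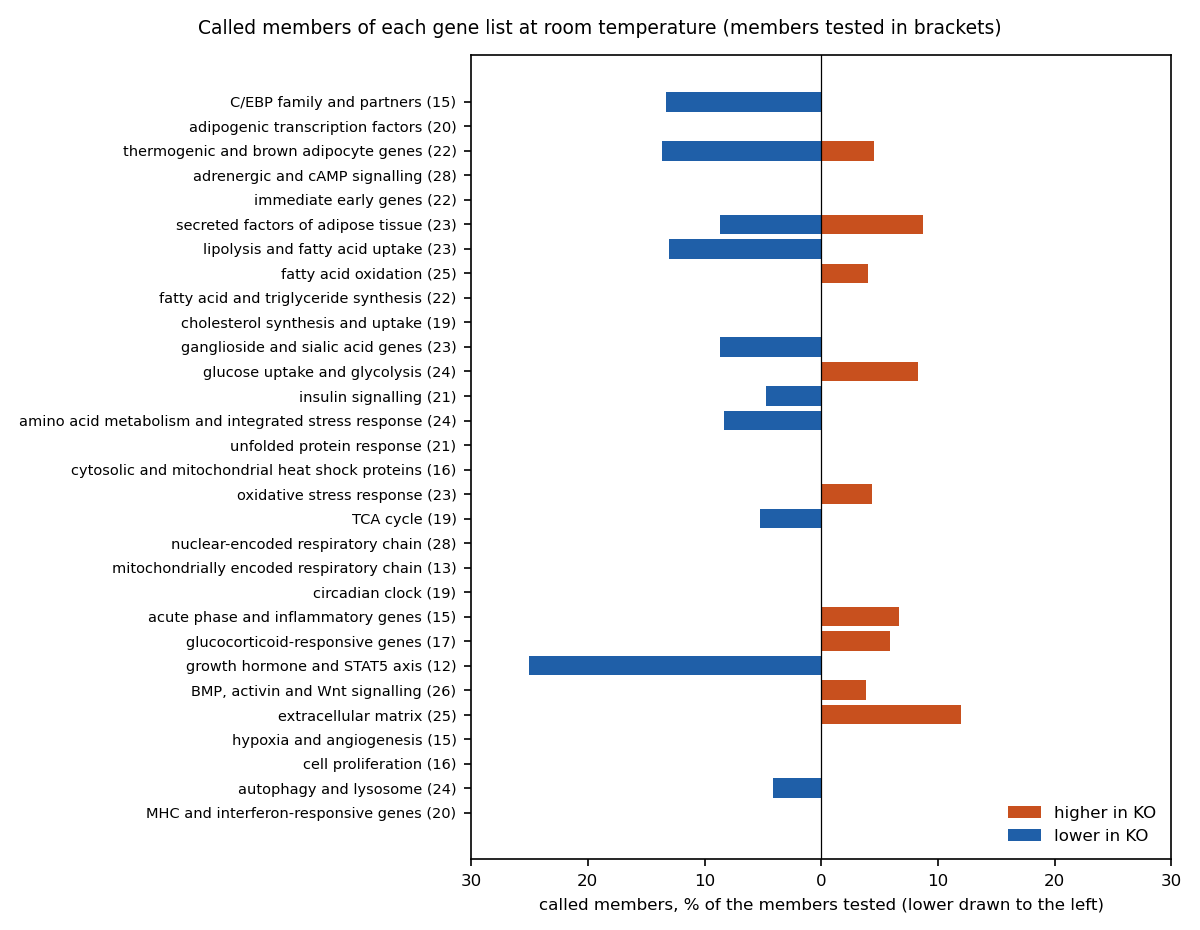
Share of the tested members of each pathway list that were called at room temperature, in percent, with lower members to the left (blue) and higher members to the right (orange). The number tested is in brackets. The growth hormone and STAT5 axis has the greatest share, 3 of 12, and 13 of the 30 lists have none. The lists were chosen with earlier results of these data known.

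Some called genes lay side by side on a chromosome, which was noticed after the values were seen. The clusters around Cebpb, Adipoq and Peg3 follow. Runs of 3 called genes, with starts within 150 kb of the next, also lay on chromosomes 1, 3 and 9. On chromosome 1 Marc1 and C130074G19Rik were higher and Mark1 lower. On chromosome 3 Dennd2d, Cept1 and Dram2 were lower. On chromosome 9 Plet1os was lower, and Dlat and Dixdc1 were higher. How many such runs would arise by chance was not tested. Within 250 kb of Cebpb, 4 of the 8 other tested genes were higher: Tmem189, whose 5′ end overlaps Cebpb on the opposite strand, and the lincRNAs A530013C23Rik, Gm14321 and 9230111E07Rik. Tmem189, which encodes the desaturase that makes plasmalogens, held 17.5, 17.96, 18.5, 16.5 and 24.0 CPM in WT_RT and 50.6, 53.6, 60.1, 54.1 and 55.5 CPM in KO_RT (1.53 ± 0.153, adjusted p = 4.5e-06). A530013C23Rik, which starts 2.26 kb downstream of the Cebpb start, rose from 0.853 ± 0.198 to 3.58 ± 0.486 CPM (SD, n = 5; 2.07 ± 0.19). The call of 9230111E07Rik held in 12 of 18 settings and was lost without KO_RT replicate 1, 2 or 3 or WT_RT replicate 1, 2 or 3 (0.0519 to 0.0659). Farther off, Snai1, Rnf114, Spata2 and Ptpn1 were not called (-0.29 to 0.06).

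A second cluster lay around Adipoq on chromosome 16. Kng2, a kininogen gene whose annotation begins 161 kb before that of Adipoq, held 89.9, 70.9, 93.5, 111 and 58.5 CPM in WT_RT and 232, 196, 259, 291 and 250 CPM in KO_RT (1.54 ± 0.181, adjusted p = 4.42e-05). Kng1, its neighbour, had 12 reads over all WT_RT libraries and 864 over the KO_RT libraries, or 4.31 to 5.49 CPM in each knockout library, a fitted difference of 6.26 ± 0.281 (adjusted p = 1.49e-12). The kininogen genes are near copies, and how far reads of 1 were assigned to the other was not tested. In WT_RT, Kng2 averaged 84.8 CPM and Kng1 0.0618 CPM, and in KO_RT they averaged 246 and 4.95 CPM. Eif4a2 (0.39), Rfc4 (0.67) and B630019A10Rik (1.76) were also higher. Fetub, Gm6493, 6330408M09Rik, BC106179 and St6gal1, also within 250 kb, were not called (-0.23 to 0.84). Adipoq itself was at 938 ± 65.7 CPM (SD, n = 5) and 935 ± 41.4 CPM, and St6gal1 beyond it at 21.4 CPM in both groups. Some adipose Cre lines are built from large pieces of the Adipoq locus that carry neighbouring genes. Whether these mice hold such a piece is not given in the sources used here, and extra gene copies and altered transcription cannot be told apart.

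**Figure D4:**
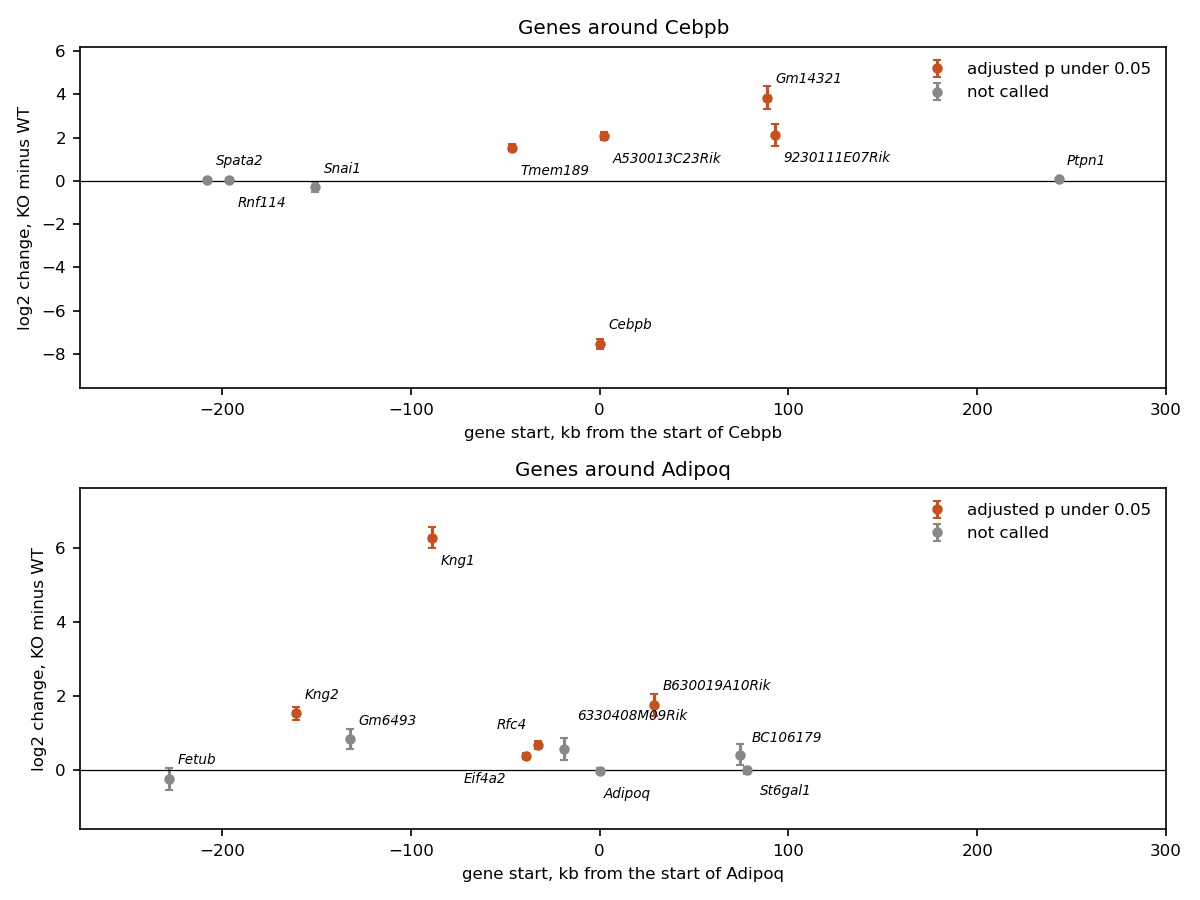
Knockout difference at room temperature (log2, points with their standard error) for genes within 250 kb of Cebpb (upper panel) and Adipoq (lower panel), against the distance in kb between the lower coordinates of the genes. Called genes are orange and the others grey. Around Cebpb 4 neighbours are higher, and around Adipoq 5 are higher while Adipoq itself is at -0.01.

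The third cluster was the imprinted Peg3 domain of chromosome 7. Peg3, a zinc finger protein gene, held 108, 160, 137, 229 and 176 CPM in WT_RT and 64.3, 30.2, 69.1, 33.0 and 47.4 CPM in KO_RT (-1.73 ± 0.294, adjusted p = 0.003). Usp29 fell from 92 reads to 10 over 5 libraries each (-2.92 ± 0.641, adjusted p = 0.0137), and Zim1 fell by 0.73 ± 0.177 (adjusted p = 0.0269), a call held in 13 of 19 settings. In the cold, Peg3 differed by 0.01 between the genotypes, and the test of that contrast gave a difference of -1.74 ± 0.406 that missed the threshold (adjusted p = 0.063).

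Some low-level genes were nearly absent from 1 genotype, and were also chosen after their values were seen. Nr0b1, the orphan nuclear receptor DAX1 known from the adrenal and gonads, had 12 reads over the WT_RT libraries and 813 over the KO_RT libraries, with 2.78 to 7.94 CPM in each knockout library (6.14 ± 0.519, adjusted p = 3.15e-07). Kcnd2, a potassium channel, went the other way, from 0.696 to 1.78 CPM over the WT_RT libraries to 8 reads in all knockout libraries (-4.85 ± 0.474). Rasef, a GTPase of the Rab type, fell from 159 reads to 5 (-4.65 ± 0.556, adjusted p = 2.17e-05). Fndc5, the precursor of irisin and chosen in the same way, was reduced but not absent, with 1428 reads in WT_RT and 294 in KO_RT. It fell from 7.17 ± 2.82 to 1.70 ± 0.806 CPM (SD, n = 5; -2.08 ± 0.43, adjusted p = 0.0119), with overlapping groups. The fitted differences of Nr0b1, Kcnd2 and Rasef, with so few reads in 1 genotype, depend on how small counts are treated.

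The cold libraries, which share no sample with the room temperature ones, allowed each effect to be set beside a second measurement. There 1173 genes were called for genotype (7.70%). Of the 210 genes higher at room temperature 190 had the same sign in the cold and 87 were called higher, and of the 201 lower genes 186 had the same sign and 110 were called lower. The 197 genes called the same way were 47.9% of those called at room temperature and 16.8% of those called in the cold. The other 2 genes called at both temperatures were called in opposite directions. The median difference was 0.68 at room temperature and 0.36 in the cold for the higher genes, and -0.58 and -0.42 for the lower genes. These genes were picked by their call at room temperature, which enlarges the room temperature median beforehand. The medians therefore do not show whether the effect was weaker in the cold. The share with the same sign over all tested genes was not computed. Among the leading genes, St3gal5 (-2.08), Tmem56 (-1.89), Il1rn (2.41), Rbp4 (1.25) and Xrcc5 (1.29) were called in the cold in the same direction, as were Kng1 (6.49), Nr0b1 (5.71), Tmem189 (2.06) and Kcnd2 (-4.50). Other leading genes were not called in the cold. They included Dio2 (-0.69, adjusted p = 0.127), H2-Q10 (0.92, 0.187), Mc5r (0.83, 0.436), Adprhl1 (1.12, 0.214), Marc1 (0.28, 0.639) and Peg3 (0.01, 0.991). For none of these was the difference between the temperatures called.

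The test of the genotype effect at room temperature against that in the cold called 113 genes (0.742%), and 14 of these were among the 411. Trib1 was lower by 1.37 at room temperature and by 2.35 in the cold, a difference of 0.98 ± 0.179 (adjusted p = 0.012). Usp33 likewise was lower by 0.66 and by 1.57 (difference 0.91 ± 0.119, adjusted p = 0.000689), as was Met, the hepatocyte growth factor receptor, by 0.66 and 1.53 (chosen after its values were seen, adjusted p = 0.0363). Nt5e, the ectoenzyme CD73 that makes adenosine, was lower at room temperature, where it held 3.86, 3.62, 4.23, 2.40 and 5.66 CPM in WT_RT and 1.32, 1.20, 0.956, 1.79 and 1.31 CPM in KO_RT, and stood at 0.01 in the cold (difference -1.59 ± 0.291, adjusted p = 0.00922, chosen after its values were seen). Bcar3, an adaptor of integrin signalling, was lower by 0.91 at room temperature against -0.18 in the cold (difference -0.73 ± 0.151, adjusted p = 0.0208).

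Both genes called in opposite directions were higher at room temperature and lower in the cold. Ergic1, a protein of the transport route from the endoplasmic reticulum to the Golgi, held 82.9, 89.5, 89.8, 77.6 and 66.9 CPM in WT_RT and 105, 102, 102, 110 and 96.4 CPM in KO_RT (0.34 ± 0.0877, adjusted p = 0.0373, held in 10 of 19 settings), against -0.46 in the cold. Fgfrl1, an FGF receptor without a kinase, was at 0.40 ± 0.0864 (adjusted p = 0.0122) against -0.28 (adjusted p = 0.0496).

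**Figure D5:**
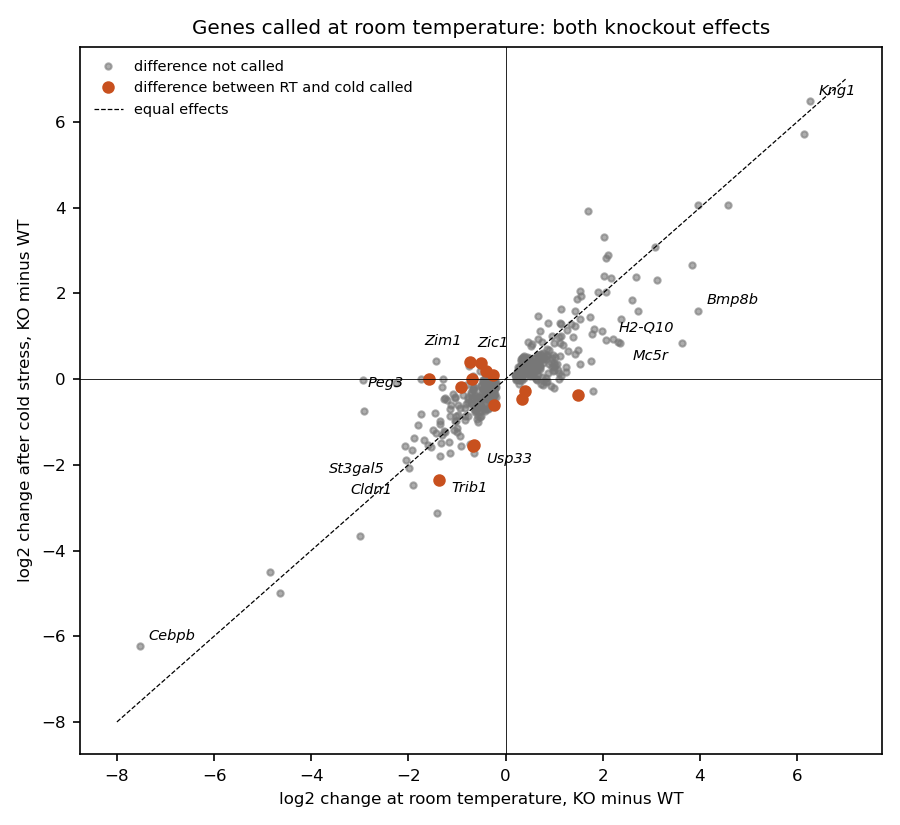
Knockout difference in the cold (vertical, log2) against that at room temperature (horizontal, log2) for the 411 genes called at room temperature. The 14 genes whose effects differed between the temperatures are larger and orange, and the dashed line marks equal effects. Of the 411, 376 have the same sign on both axes.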

How the data were processed

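Poly(A) RNA of brown adipose tissue was sequenced with a stranded kit, per the labels' protocols. The submitters' processing notes name Trim Galore 0.6.0 for trimming, STAR 2.7.8a for alignment and GRCm38.p6 as the genome. The annotation release is not given in the sources used here. The deposited values are raw counts per gene, 1 table per library, for both strands and each strand, and the reverse strand was used (94.5% to 94.9% of stranded counts in the room temperature libraries). Entries that name no gene were left out: in these libraries unmapped reads were 4.00% to 5.66%, multimapping reads 18.9% to 21.4%, reads in no gene 3.40% to 4.55% and ambiguous reads 1.02% to 1.16%. Of 15233 tested genes, 15222 matched GENCODE M21 for position and 15217 had a symbol.

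The tests ran in edgeR 4.0.16 (R 4.3.3). Low genes were removed by filterByExpr on the groups (count minimum 10, total minimum 15), scaling was by TMM, and the 4 groups entered 1 robust quasi-likelihood model, sharing an estimate of the spread on 16 residual degrees of freedom. The script was tested on simulated data. Replicates of a group differed by 15.7 to 72.0 times counting error (chi-square per degree of freedom), so that none was a copy. Named genes were the C/EBP list, the 15 of largest change per direction among called genes that averaged 5 CPM or more in either genotype, with no overlap and no predicted-type symbol, the 8 of smallest adjusted p among the rest of these, members of 30 pathway and 12 marker lists, and the 8 of smallest p for the difference from the cold. The comparison and the lists were chosen with earlier results of these data known. Alternatives were RLE scaling, 2 other filters, DESeq2 1.42.0, the 10 room temperature libraries alone, a replicate block, both strands, a muscle term and leaving out each library. Some genes that met the naming rule are not reported here.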

Additional observations from a re-analysis of the deposited data

Results flagged for a closer look

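Among 92 groups of 5 libraries (46 leading genes, 2 groups each), 9 held a library whose gap to the others was large for its group's range, where chance gives about 1 in 20. In the knockout, KO_RT replicate 1 stood above the rest for Il1rn (14.02 CPM, the next at 8.40), Tshz2 (69.5 CPM, next 63.9) and Plet1os (4.10 CPM, next 3.04). KO_RT replicate 4 stood above the rest for Mc5r (35.8 CPM, next 17.0) and Myrip (2.28 CPM, next 1.40). In the wild type, WT_RT replicate 5 was the highest for Tmem189 (24.0 CPM, next 18.5), Myo5a (122 CPM, next 103) and Tcn2 (92.4 CPM, next 59.3), and WT_RT replicate 3 was the lowest for St3gal5 (55.4 CPM, next 83.6). Of these 9 genes, Mc5r lost its call without the library that stood apart, and the other 8 kept theirs in every setting tried.

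The knockout effect at room temperature minus that in the cold passed the test (edgeR, adjusted p) for these named genes. It was 0.91 for Usp33 (0.000689), 0.98 for Trib1 (0.012) and 0.37 for Dip2a (0.0261), all lower in the knockout at both temperatures and more so in the cold. It was 0.80 for Ergic1 (0.00257) and 0.68 for Fgfrl1 (0.0081), which were higher at room temperature and lower in the cold. It was -0.73 for Bcar3 (0.0208), -0.86 for Zic1 (0.0243) and -1.14 for Zim1 (0.0275), which were lower at room temperature and not called in the cold.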

How the results depend on the processing

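Cebpb kept its call in all settings (-7.75 to -7.33 when 1 library was left out). Leaving out 1 room temperature library gave 135 to 202 higher and 123 to 169 lower genes, 47 to 65 and 38 to 50 of at least 2-fold, and 19 to 28 called list members. Leaving out 1 library of any of the 4 groups gave 78 to 125 genes that differed between the temperatures. DESeq2 called 312 higher and 317 lower genes, and 269 that differed between the temperatures. A minimum mean of 5 CPM left 27 higher and 21 lower genes of at least 2-fold, since fewer low genes were tested. Without both WT libraries nearest the middle of the first component (WT_RT replicate 4 and WT_cold replicate 5), an alternative chosen after seeing the data, 74 genes differed between the temperatures. The cause of the DESeq2 and 74-gene shifts was not tested. With the palindrome alone, 0 leading genes held the motif.

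Same-numbered WT_RT and KO_RT libraries deviated together by correlations of 0.15, 0.08, -0.09, -0.17 and 0.22, and only replicate 5 of the WT_RT libraries had no stronger partner than KO_RT replicate 5, so that the numbers were not taken as pairs. With the replicate block, 205 genes were higher and 178 lower, 65 and 46 of them by at least 2-fold, 94 differed between the temperatures, and Cebpb was at -7.53. Over 103 named genes and all settings, 1940 values were computed: 1758 kept direction and side of the threshold, 182 lost the call and 0 reversed, and 74 genes kept theirs throughout. Depth limits genes under about 1 CPM, where some groups rest on 5 to 20 reads.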
